A study of Homo sapiens with 6 samples.

Results

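The genes described here are the enzymes that make serine and pass its side-chain carbon onto folate: PHGDH, PSAT1, PSPH, SHMT1, SHMT2, MTHFD1, MTHFD1L, MTHFD2, MTHFD2L and ALDH1L2. They were taken by symbol from the pathway, 10 of the 33890 genes in the deposited table, and were grouped into serine synthesis, the mitochondrial folate arm and the cytosolic folate arm. Messenger RNA was measured in LN229 cells, an established human line from a grade IV glioma (glioblastoma). There were 2 groups of 3 libraries each. The first came from cells kept in 800 µM ursodeoxycholic acid (UDCA), a hydrophilic bile acid prescribed for cholestasis, for 48 h, and the second from untreated control cells. Both groups grew in DMEM with serum. No label or protocol says whether the libraries were made from independent cultures; p-values reflect the scatter among these 6 libraries, and part or all of that scatter may be technical.

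Cells make serine in the cytosol from the glycolytic intermediate 3-phosphoglycerate in a short chain of reactions. Serine hydroxymethyltransferases then split serine into glycine and a carbon unit carried by tetrahydrofolate. That unit is oxidised or reduced by parallel sets of enzymes in the mitochondrion and in the cytosol, which exchange carbon as formate and feed the synthesis of purines, thymidylate and methyl groups. In many tumours the mitochondrial set supplies most of the formate, and the transcription factor ATF4 is a known activator of several of these genes.

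The libraries held 15988951 to 17045218 recovered reads with UDCA and 16639832 to 17743022 in control. Across all 14380 genes tested, 45.1% were higher and 35.7% were lower with UDCA at an adjusted p under 0.05 (limma on log2(FPKM + 1), Benjamini-Hochberg), and the median gene changed by 0.095 on the log2 scale. Mitochondrially encoded transcripts took 0.0263 to 0.0271% of reads with UDCA and 3.13 to 3.16% in control. Of 8 markers of glioma cells, VIM, NES, CD44, SOX2 and S100B were lower with UDCA, EGFR was higher, OLIG2 did not pass and the astrocyte marker GFAP was under 1 FPKM in both groups (0.505 ± 0.0586 with UDCA, 0.612 ± 0.0807 in control; SD, n = 3 each). The summed FPKM of 10 markers of other cell types was 10.6 to 11.4 with UDCA and 11.1 to 12.1 in control, most of it from KRT8, an epithelial keratin that rose 1.57-fold, and SNAP25, a neuronal gene that fell 1.45-fold. Of the 8 that were not tested, the endothelial marker VWF averaged 0.608 FPKM with UDCA and 0.204 in control, the fibroblast collagen genes COL1A1 and COL1A2 averaged 0.127 and 0 FPKM with UDCA and 1.08 and 0.0361 in control, and PTPRC, CD14, PECAM1, EPCAM and MBP averaged at most 0.341 FPKM in either group. The part of these differences in the results below was not tested.

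All 10 enzymes passed the minimum level (MTHFD2L only through its level with UDCA) and the test, and they divided by pathway arm: the 3 enzymes of serine synthesis, which also work in the cytosol, and the 5 mitochondrial folate enzymes were higher with UDCA, and the 2 cytosolic folate enzymes were lower. Counts of 8 higher and 2 lower stand against background shares of 45.1% and 35.7% of all genes tested, and groups that did not overlap were the case for 10 of 10 enzymes and for 82.8% of all genes tested. A call by itself is thus common in these data. Among the enzymes, 4 were called with a log2 change of at least 1 (12.3% of all genes tested) and 1 with a change of -1 or below (12.0%). The median log2 change of the 10 was 0.93, against 0.095 for all genes tested. In bulk samples such as these, fewer cells expressing a gene and less of its RNA per cell cannot be told apart.

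**Figure D1:**
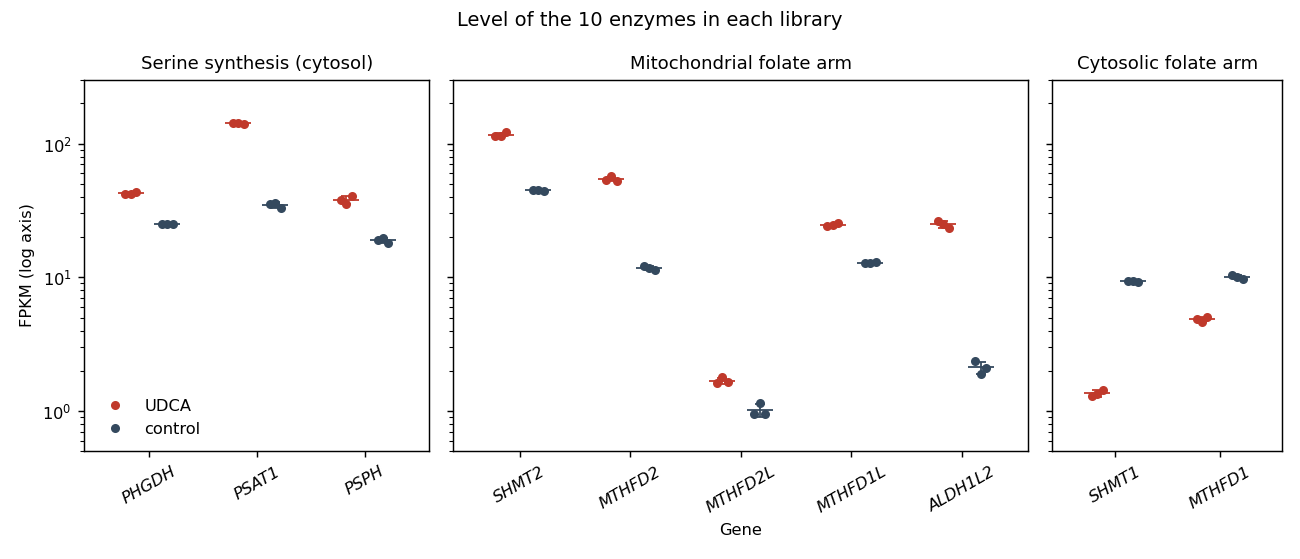
FPKM (log axis) of each of the 10 enzymes in the 3 UDCA libraries (red, left) and the 3 control libraries (dark, right); points are libraries, dashes the mean and bars the SD. In the left and middle panels every UDCA library lies above every control library, and in the right panel every UDCA library is lower than every control library.

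Serine synthesis was higher at each of its 3 steps, most at the second. PHGDH (ENSG00000092621, chromosome 1, 119648411 to 119744226, GRCh38), the dehydrogenase that draws 3-phosphoglycerate out of glycolysis, was at 42.0, 41.7 and 43.4 FPKM in the UDCA libraries and at 24.8, 24.9 and 25.2 FPKM in the control libraries. The libraries within each group lay close together, and the gap between groups was many times their spread. The rise was 1.70-fold by the ratio of means, a log2 change of 0.74 ± 0.024 (SE; limma, adjusted p = 2.2e-07). Of all genes tested, 19.5% had a higher log2 change.

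PSAT1 (ENSG00000135069, chromosome 9, 78297143 to 78330093), the aminotransferase that makes phosphoserine with nitrogen from glutamate, was at 142, 144 and 140 FPKM with UDCA and at 35.1, 36.0 and 32.9 FPKM in control. It rose 4.09-fold, a log2 change of 2.003 ± 0.035 (limma, adjusted p = 1.1e-08), and only 2.28% of tested genes had a higher one. With UDCA its mean level stood above that of 98.7% of tested genes, against 91.5% in control. PSPH (ENSG00000146733, chromosome 7, 56011051 to 56051604), the phosphatase that completes serine, was at 38.1, 35.1 and 40.4 FPKM with UDCA and at 18.9, 19.8 and 17.9 FPKM in control. This was a 2.01-fold rise (log2 change 0.97 ± 0.057, adjusted p = 4.3e-06, limma) with the largest SE of the 3 genes. Of 4 annotated pseudogenes of PSAT1 only 1 was listed, at no more than 0.0643 FPKM, and the 1 of PSPH was not listed; reads that fit both a gene and its copy could have been lost or shared, and the sources used here do not say how the counting treated them.

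The mitochondrial folate enzymes rose by very unequal factors, between 1.66-fold and 11.8-fold. SHMT2 (ENSG00000182199, chromosome 12, 57229327 to 57234935), the mitochondrial serine hydroxymethyltransferase, which in glioblastoma is known for its role in poorly perfused tumour zones, was at 115, 115 and 121 FPKM with UDCA and at 45.2, 45.3 and 44.3 FPKM in control. All 3 UDCA libraries were far above the controls, and the rise was 2.60-fold (log2 change 1.36 ± 0.027, adjusted p = 2.2e-08, limma). SHMT2 had the highest FPKM of the 10 messages in control, and PSAT1 had it with UDCA. FPKM divides by merged exon length, so ranks between genes depend on that length. By reads in all libraries PHGDH led in control (11881, against 11212 for SHMT2). With UDCA, SHMT2 led (28274 reads, against 15530 for PSAT1).

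MTHFD2 (ENSG00000065911, chromosome 2, 74198562 to 74217565), the dehydrogenase and cyclohydrolase of the mitochondrion that is abundant in embryos and tumours and scarce in most adult tissues, was at 53.6, 56.9 and 52.8 FPKM with UDCA and at 12.1, 11.7 and 11.3 FPKM in control. It rose 4.65-fold (log2 change 2.13 ± 0.039, adjusted p = 1.4e-08, limma), and 1.88% of tested genes had a higher log2 change. Exons of other genes, mainly of SLC4A5 on the opposite strand, cover 33.2% of its exon bases, but SLC4A5 itself was at 0.0624 ± 0.0160 FPKM with UDCA and 0.0674 ± 0.0211 in control (SD, n = 3 each). Of 7 annotated pseudogenes 2 were listed, at no more than 0.707 FPKM. Its close paralog MTHFD2L (ENSG00000163738, chromosome 4, 74114174 to 74303099), which catalyses the same reactions, stayed near the minimum level, at 1.62, 1.79 and 1.64 FPKM with UDCA and at 0.955, 1.14 and 0.947 FPKM in control. The groups did not overlap and the difference passed (1.66-fold, log2 change 0.42 ± 0.072, limma, adjusted p = 0.00138), on 828 reads in all UDCA libraries and 514 in all control libraries; adding 0.1 FPKM rather than 1 before the logarithm gave a log2 change of 0.68. Only 1 control library reached 1 FPKM, so MTHFD2L was tested because it was higher with UDCA, and its call adds nothing to the count above.

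MTHFD1L (ENSG00000120254, chromosome 6, 150865549 to 151101887), the mitochondrial synthetase that releases formate for export, was at 24.4, 24.4 and 25.3 FPKM with UDCA and at 12.9, 12.9 and 12.9 FPKM in control. That is a 1.92-fold rise (log2 change 0.89 ± 0.026, adjusted p = 1.3e-07, limma) with almost no spread among the controls. ALDH1L2 (ENSG00000136010, chromosome 12, 105019784 to 105084577), which instead burns the formyl group of mitochondrial 10-formyl-tetrahydrofolate to CO2 and yields NADPH, showed the largest change of the 10. It was at 26.3, 25.2 and 23.3 FPKM with UDCA and at 2.35, 1.91 and 2.09 FPKM in control. The 11.8-fold rise (log2 change 3.06 ± 0.067, adjusted p = 3.3e-08, limma) rests on 10597 reads in all UDCA libraries and 928 in all control libraries, and 0.640% of tested genes had a higher log2 change. With UDCA its mean level stood above that of 87.4% of tested genes, against 24.3% in control.

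The cytosolic folate enzymes went the other way. SHMT1 (ENSG00000176974, chromosome 17, 18327860 to 18363563), the cytosolic serine hydroxymethyltransferase, was at 1.30, 1.34 and 1.45 FPKM with UDCA and at 9.36, 9.40 and 9.24 FPKM in control. It fell 6.86-fold (log2 change -2.13 ± 0.046, adjusted p = 2.9e-08, limma), and 3.08% of tested genes had a lower log2 change. With UDCA it was the least abundant of the 10. It shares 196 exon bases with SMCR8 on the opposite strand, at 15.5 ± 0.469 FPKM with UDCA and 10.3 ± 0.300 in control (SD). SHMT1 had 151 to 179 reads in a UDCA library, and the part of SMCR8 in them was not tested. MTHFD1 (ENSG00000100714, chromosome 14, 64388031 to 64463457), the trifunctional cytosolic enzyme that interconverts formate, formyl- and methylene-tetrahydrofolate, was at 4.88, 4.66 and 5.01 FPKM with UDCA and at 10.4, 10.1 and 9.72 FPKM in control. It fell 2.08-fold (log2 change -0.92 ± 0.043, adjusted p = 1.2e-06, limma), and 13.3% of tested genes had a lower log2 change. Exons of genes on the opposite strand cover 11.0% of the exon bases of MTHFD1 and 9.51% of those of SHMT2; one of them, NDUFA4L2 beside SHMT2, was at 12.5 ± 0.430 FPKM with UDCA and 0.670 ± 0.102 in control (SD, n = 3 each), but shares only 33 bases with it.

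**Figure D2:**
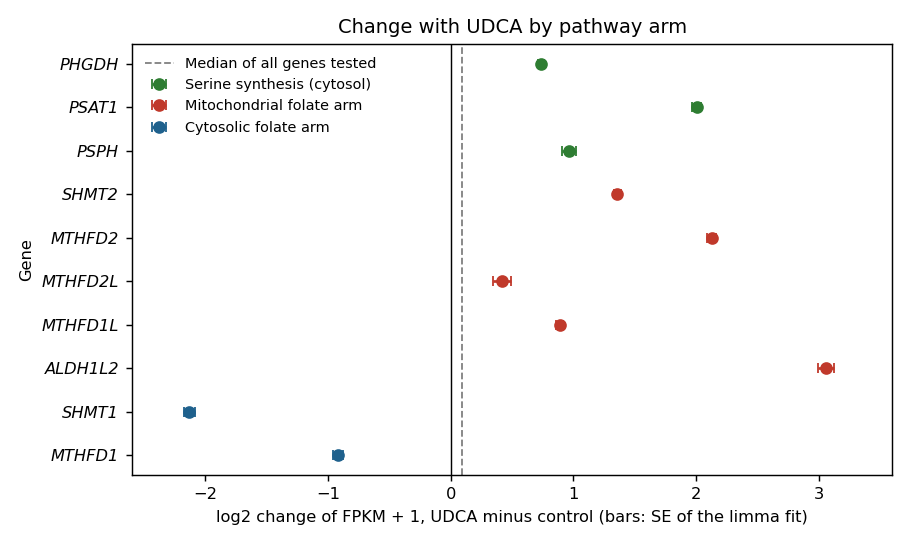
Change of each enzyme on the log2(FPKM + 1) scale, UDCA minus control, with the SE of the fit, coloured by pathway arm; the dashed line is the median of all genes tested, at 0.095. ALDH1L2 lies furthest right at 3.06 and SHMT1 furthest left at -2.13.

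Because each mitochondrial enzyme has a cytosolic or mitochondrial counterpart, the balance between them can be read within a library, where scaling between libraries cancels. In each UDCA library SHMT2 was 88.5, 85.6 and 83.6 times as abundant as SHMT1 per length, against 4.83, 4.82 and 4.79 times in the control libraries. On the log2 scale the ratio averaged 6.42 ± 0.041 with UDCA and 2.27 ± 0.0058 in control (SD, n = 3 each), a difference of 4.16. The ratio of MTHFD1L to MTHFD1 was 5.00, 5.23 and 5.05 with UDCA and 1.23, 1.28 and 1.33 in control, a log2 difference of 1.99. Per length of merged annotated exons, MTHFD1L thus exceeded MTHFD1 in every library, by little in control and at least 5.00-fold with UDCA. That length was 5021 bases for MTHFD1L and 9377 for MTHFD1. By reads alone MTHFD1 was ahead in control, with 4867 in all libraries against 3338 for MTHFD1L. Which message was more abundant in control is therefore uncertain, while the difference between the groups does not depend on these lengths. The amounts of the enzymes themselves were not measured.

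For the dehydrogenase step, MTHFD2 exceeded cytosolic MTHFD1 per length 11.0-, 12.2- and 10.5-fold in the UDCA libraries. In the control libraries it did so 1.16-, 1.17- and 1.16-fold, a log2 difference of 3.27. By reads alone MTHFD1 was again ahead in control, with 4867 in all libraries against 2937 for MTHFD2. Within the mitochondrion, MTHFD2 exceeded its paralog MTHFD2L 33.0-, 31.9- and 32.1-fold with UDCA and 12.7-, 10.3- and 11.9-fold in control, a log2 difference of 1.48. The groups did not overlap for any of these 4 ratios, and each gave p = 0.1 in a 2-sided exact permutation test over libraries. This is the smallest that 3 against 3 allows, so none can pass 0.05. For SHMT2/SHMT1, MTHFD1L/MTHFD1 and MTHFD2/MTHFD1 that outcome was fixed in advance. In each, 1 gene was higher and the other lower in every UDCA library, so it adds nothing to the single-gene results. No ratio was formed for ALDH1L2 and its cytosolic counterpart ALDH1L1, which was at 0.0191 ± 0.0074 FPKM with UDCA and 0.0042 ± 0.0042 in control (SD, n = 3 each) and had no read in control replicate 1.

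**Figure D3:**
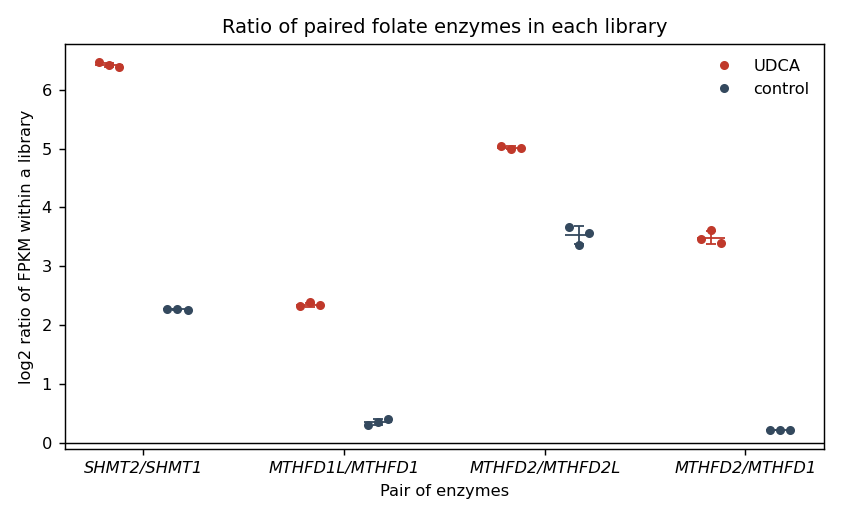
log2 ratio of FPKM between paired enzymes within each library, UDCA (red, left) and control (dark, right); points are libraries, dashes the mean and bars the SD. The SHMT2/SHMT1 ratio differs most between the groups, averaging 6.42 in UDCA libraries and 2.27 in control libraries.

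Summed over their members, the mitochondrial folate enzymes reached 221 to 224 FPKM in the UDCA libraries and 71.5 to 73.5 FPKM in the control libraries. Serine synthesis reached 220 to 224 FPKM with UDCA and 76.0 to 80.7 FPKM in control, so in both groups the synthesis and mitochondrial sums lay near each other. The cytosolic pair reached only 6.00 to 6.46 FPKM with UDCA, against 19.0 to 19.8 FPKM in control. The order of the messages by level with UDCA was PSAT1, SHMT2, MTHFD2, PHGDH, PSPH, ALDH1L2, MTHFD1L, MTHFD1, MTHFD2L and SHMT1, and only the neighbours ALDH1L2 and MTHFD1L overlapped in their ranges. In control it was SHMT2, PSAT1, PHGDH, PSPH, MTHFD1L, MTHFD2, MTHFD1, SHMT1, ALDH1L2 and MTHFD2L, with no overlap between neighbours. These sums and orders are of FPKM and depend on the merged exon lengths, from 2188 bases for PSAT1 to 9819 for MTHFD2L.

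The DNA ahead of these genes is shown for the synthetase pair that moved in opposite directions, MTHFD1L and MTHFD1, for MTHFD2, a mitochondrial enzyme that rose, and for SHMT1, the cytosolic enzyme with the largest fall. RefSeq windows from 250 bases before to 50 bases after an annotated start (GRCh38.p14) were found for 7 of the 10 enzymes and were searched on both strands for TGATGNAA, the core of the element bound by ATF4 with C/EBP factors, and for CACGTG, the E-box bound by MYC and related factors. The matches found did not overlap. Of the 7 genes, MTHFD1L held TGATGNAA (as TGATGCAA), as did 4.46% of all 27305 genes with a window of this length, and MTHFD1L and MTHFD1 held CACGTG, as did 8.77% of all genes. By window, TGATGNAA was in 3 and CACGTG in 4 of the 11 windows of the 7 genes, against 3.62% and 7.26% of all 35116 windows, but the 3 windows of MTHFD1L that hold them overlap and show the same sites. The 250 bases before the first-listed start follow, on the strand of the gene, with these motifs in capitals. MTHFD1L is at chr6:150866236-150866485 (plus strand), MTHFD1 at chr14:64388103-64388352 (plus), MTHFD2 at chr2:74198365-74198614 (plus) and SHMT1 at chr17:18363551-18363800 (minus).
MTHFD1L: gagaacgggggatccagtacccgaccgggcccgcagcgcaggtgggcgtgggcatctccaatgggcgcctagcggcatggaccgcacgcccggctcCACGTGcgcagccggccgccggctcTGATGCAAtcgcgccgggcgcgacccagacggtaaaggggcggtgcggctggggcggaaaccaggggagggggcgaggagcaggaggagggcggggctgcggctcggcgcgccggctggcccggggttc
MTHFD1: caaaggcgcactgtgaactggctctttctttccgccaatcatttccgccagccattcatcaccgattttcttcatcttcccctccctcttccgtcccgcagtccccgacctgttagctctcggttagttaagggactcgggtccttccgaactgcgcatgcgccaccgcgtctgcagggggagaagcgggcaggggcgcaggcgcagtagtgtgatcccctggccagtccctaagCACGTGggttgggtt
MTHFD2: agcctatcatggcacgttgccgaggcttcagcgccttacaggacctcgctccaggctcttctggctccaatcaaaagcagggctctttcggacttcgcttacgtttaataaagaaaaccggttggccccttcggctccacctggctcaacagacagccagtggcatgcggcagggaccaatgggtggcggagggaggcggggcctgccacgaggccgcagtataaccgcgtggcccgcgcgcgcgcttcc
SHMT1: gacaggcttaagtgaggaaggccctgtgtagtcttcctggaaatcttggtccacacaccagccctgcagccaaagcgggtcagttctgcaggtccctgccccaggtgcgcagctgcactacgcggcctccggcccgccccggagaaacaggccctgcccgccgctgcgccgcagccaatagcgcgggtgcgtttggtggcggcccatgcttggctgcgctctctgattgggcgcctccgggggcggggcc
In MTHFD1L the E-box begins 154 bases and the TGATGCAA 129 bases before this start, but 4 starts are annotated for the gene and the distances differ between them. In MTHFD1 the E-box begins 15 bases before the start. The E-box is therefore held by an enzyme that rose and by its counterpart that fell. A match is a string of letters and not evidence of binding, and the absence of one speaks only of these windows.

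Around the 10 enzymes, the rest of serine and one-carbon metabolism went both ways: of 48 tested genes in lists drawn from the pathway, its suppliers, its users and its known regulators, 28 were higher and 15 lower with UDCA, against 45.1% and 35.7% of all genes tested, with a median log2 change of 0.26 against 0.095 for all genes tested. Of these calls, 2 (GCSH as higher and TYMS as lower) were of genes that reached the minimum level in no library of the other group, so the filter favoured them. In glycolysis, the 3 listed enzymes PGK1, PGAM1 and ENO1 were lower (3 of 3, against 35.7% of all genes tested). Of these only PGK1 acts before 3-phosphoglycerate, where serine synthesis branches off. PGK1, which makes 3-phosphoglycerate, was at 50.8 ± 0.194 FPKM with UDCA and 210 ± 0.679 in control. PGAM1, which draws it towards pyruvate, was at 41.4 ± 2.23 FPKM with UDCA and 234 ± 5.27 in control (SD, n = 3 each). PGAM1 has processed pseudogenes that can share its reads. PHGDH, which takes 3-phosphoglycerate out of glycolysis, and PGAM1, which carries it onward, thus moved in opposite directions. PGK1 fell 4.12-fold (adjusted p = 5.5e-10, limma) and PGAM1 fell 5.64-fold (adjusted p = 8.7e-09, limma).

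Of 8 tested carriers of serine, glycine and related amino acids, 5 were higher and 3 lower, against 45.1% and 35.7% of all genes tested. SLC6A9, the plasma membrane glycine transporter GlyT1, rose 7.40-fold to 25.1 ± 0.570 FPKM with UDCA, against 3.39 ± 0.321 in control (SD, n = 3 each). SLC25A38, the mitochondrial glycine carrier, rose 1.82-fold and SLC38A1, a sodium-coupled neutral amino acid carrier, rose 3.48-fold. SLC1A5, which exchanges neutral amino acids, rose 2.27-fold, while the related serine exchanger SLC1A4 fell 2.08-fold to 28.5 ± 0.315 FPKM with UDCA, against 59.2 ± 0.964 in control. SFXN1, the mitochondrial serine transporter, was slightly lower at 17.6 ± 0.664 with UDCA and 21.0 ± 0.259 FPKM in control (adjusted p = 0.000362, limma). SLC38A2, the fifth carrier called higher, differed little (87.7 ± 2.96 with UDCA, 83.2 ± 1.01 FPKM in control; adjusted p = 0.0431, limma) and lost its call under 8 of 13 alternative settings.

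GGH and TYMS, which handle or use folate outside the mitochondrial arm, fell more than MTHFD1 by the ratio of means. GGH, which trims the glutamate tail of folates, fell 4.48-fold to 10.8 ± 0.496 FPKM with UDCA, against 48.4 ± 1.25 in control. TYMS, thymidylate synthase, fell 19.0-fold to 0.417 ± 0.197 FPKM with UDCA, against 7.91 ± 0.856 in control, although other genes cover 46.6% of its exon bases. Of 4 tested folate handling genes, GGH was lower, SLC19A1 and MTFMT were higher, and FPGS did not pass. The shares among all genes tested were 45.1% higher and 35.7% lower. SLC25A32, which carries folate into the mitochondrion, was listed at only 0.0989 ± 0.0440 FPKM with UDCA and 0.0796 ± 0.0026 in control and was not tested; other genes cover 80.8% of its exon bases, so its level is uncertain. Of 7 genes of purine and thymidylate synthesis, TYMS, PFAS and PAICS were lower, against 35.7% of all genes tested. GART, ATIC and PPAT, the first enzyme committed to purines, were higher, against 45.1%, and ADSL did not pass. TYMS was tested only through its control level. PPAT rose 1.97-fold and PFAS fell 1.77-fold.

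Among genes that take homocysteine and serine towards cysteine or methionine, the transsulfuration enzymes had the largest rises by fold among those tested. CBS, which condenses serine with homocysteine, rose 4.24-fold to 6.42 ± 0.207 FPKM with UDCA, against 1.51 ± 0.0460 in control, and CTH, the next enzyme, rose 6.01-fold to 15.6 ± 1.20 FPKM with UDCA, against 2.59 ± 0.477 in control (SD, n = 3 each). MTR, the folate-dependent methionine synthase, fell 1.45-fold, and AHCY, which releases homocysteine, fell 1.75-fold. The whole methionine and transsulfuration list had 5 higher and 3 lower of 9 tested, against 45.1% and 35.7% of all genes tested. AHCYL2 did not pass. BHMT and BHMT2, methyltransferases of homocysteine, stayed under the minimum level and were not tested: BHMT had 112 reads in all UDCA libraries and BHMT2 had 64, against 0 reads in every control library for both. BHMT shares 239 exon bases with DMGDH on the opposite strand, at 2.97 ± 0.247 FPKM with UDCA and 0.0289 ± 0.0271 in control (SD). The part of DMGDH in the BHMT reads was not tested. SDSL, which is related to serine dehydratase, rose 12.5-fold to 30.2 ± 0.960 FPKM with UDCA, against 2.43 ± 0.198 in control (log2 change 3.19, adjusted p = 8.5e-09, limma). Its log2 change lay beside the 3.06 of ALDH1L2; the difference between them was not tested. SRR, serine racemase, was marginally lower (2.52 ± 0.229 with UDCA, 2.94 ± 0.0699 FPKM in control; adjusted p = 0.0487, limma), a call lost under 9 of 13 alternative settings. Of 8 tested genes of phosphatidylserine and sphingolipid synthesis with the SERINC family, 6 were higher and SPTLC2 was lower. Among all genes tested, 45.1% were higher and 35.7% lower. The largest rise in this list was that of SERINC5, 2.91-fold. Of 4 glycine cleavage genes, GLDC and AMT were under the minimum level and were not tested. GLDC, the decarboxylase, was at 0.0466 ± 0.0165 FPKM with UDCA and 0.301 ± 0.0528 in control. GCSH was higher but was tested only through its UDCA level (1.43 ± 0.171 FPKM with UDCA, 0.627 ± 0.0728 in control). DLD did not pass, at 24.7 ± 1.32 FPKM with UDCA and 25.6 ± 0.648 in control.

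**Figure D4:**
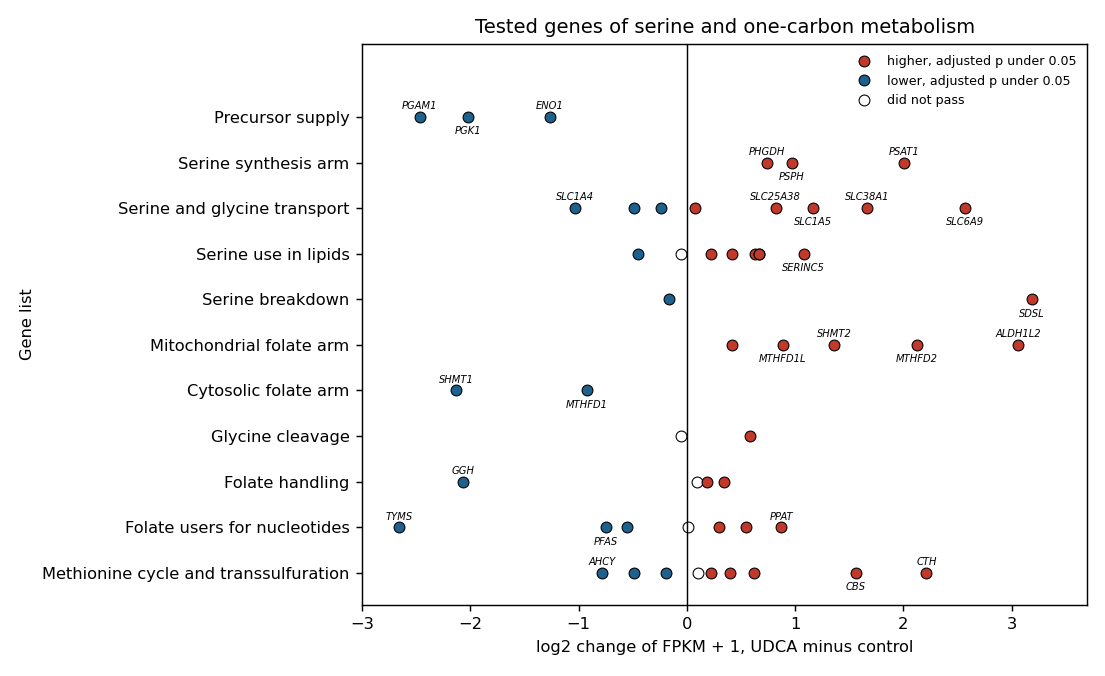
log2 change (UDCA minus control, FPKM + 1) of the tested genes of serine and one-carbon metabolism by list; filled points passed at an adjusted p under 0.05, red higher and blue lower, open points did not pass, and genes that changed by 0.7 or more are named. SDSL and ALDH1L2 lie furthest right, TYMS furthest left.

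All 5 genes listed as regulators of the pathway were higher with UDCA, a call that 45.1% of all genes tested shared. ATF4 was at 450 ± 16.3 FPKM with UDCA and 170 ± 3.28 in control, and MYC, which also acts on these genes, was at 33.3 ± 1.42 FPKM with UDCA and 5.07 ± 0.474 in control (SD, n = 3 each). NFE2L2, which encodes NRF2, rose 2.33-fold and its inhibitor KEAP1 rose 1.54-fold. DDIT3, a partner of ATF4 in the stress response, rose 19.7-fold, with 39.6% of its exon bases inside other genes. Among those genes, MARS on the opposite strand shares 355 bases with DDIT3. MARS was at 83.4 ± 1.20 FPKM with UDCA and 31.5 ± 0.927 in control (SD, n = 3 each), and its part in the DDIT3 values was not tested. The levels of these regulators' messages say nothing about the activity of the factors, and no link to the 10 enzymes was tested.

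By the root mean square distance between profiles over the 6 libraries, each relative to its own control mean, the genes most like MTHFD2 among 8792 protein-coding genes with at least 2 FPKM in both groups were SLC39A14 (0.040), TCEA1 (0.044) and MFSD2A (0.049). Those most like PHGDH were ABCD4 (0.015), PJA1 (0.017) and C5orf38 (0.020). This distance mostly reads the change with UDCA, so the choice fixes that these genes changed by about as much as the enzyme they were set beside.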

How the data were processed

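Polyadenylated RNA was made into Illumina TruSeq libraries, as the protocols in the labels state. HISAT2, Bowtie2 2.0.6 and GRCh38 appear, with no role, in the submitters' processing notes. How reads were counted, by strand or not, and how genes were filtered is not stated in those notes or the labels. The deposited values are FPKM by inference: each value times the merged exon length in GENCODE 29 is a whole-number multiple of a step specific to each library (100% of values, within 0.01 reads), and the step is the inverse of the summed whole numbers, here called recovered reads. All 33890 IDs matched GENCODE 29, the source of symbols and positions. For a 1 kb gene, 3 reads equal 0.169 to 0.188 FPKM; such floors cover counting error only.

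The 14380 genes that reached 1 FPKM in 3 or more libraries were fitted with limma 3.58.1 in R 4.3.3 on log2(FPKM + 1), trend on, group as the only term, 2-sided, Benjamini-Hochberg over all genes tested at 0.05. This scale understates changes of low genes; folds are ratios of mean FPKM. Voom on recovered reads, an alternative, called 11818 genes. Ratios between enzymes were tested with an exact permutation test in scipy 1.17.1. Exon overlap between genes was taken on either strand. Replicate pairs differed by a chi-square per degree of freedom of 1.64 to 2.86, more than sampling noise. Each library was counted as 1 sample, but this scatter cannot show whether the libraries came from independent cultures. All 10 enzymes are named whatever their result. Any listed pathway gene could be named, with those that changed most first, and all that were tested are in the counts. Also named are the 3 genes nearest to PHGDH and to MTHFD2. The enzymes and lists were chosen with earlier results of these data known; a few genes of the pathway are not reported here and are in no list count. Other settings were quantile and median-ratio scaling, totals without mitochondrial genes, no filter, a pseudocount of 0.1, voom, a replicate block and leaving out each library.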

Additional observations from a re-analysis of the deposited data

How the results depend on the processing

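All 10 enzymes kept their direction and their call under each of 13 alternatives (130 of 130 tests), with a highest adjusted p of 0.00731, for MTHFD2L. The counts of all genes called ranged from 5945 to 7743 higher and from 4927 to 6708 lower. The log2 changes of low genes were larger with a pseudocount of 0.1 and with voom: that of SHMT1 was -2.69 and -2.77 (-2.13 as reported), that of ALDH1L2 3.50 and 3.56 (3.06) and that of MTHFD2L 0.68 and 0.73 (0.42). With 1 FPKM added to both values the log2 ratios differed by 3.49 for SHMT2/SHMT1, 1.81 for MTHFD1L/MTHFD1, 1.71 for MTHFD2/MTHFD2L and 3.05 for MTHFD2/MTHFD1; leaving out a library gave 4.14 to 4.18, 1.96 to 2.02, 1.40 to 1.55 and 3.21 to 3.32.

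Among the other pathway lists, whose counts were recomputed as an alternative chosen after seeing the data, folate handling genes called higher numbered 1 with median-ratio scaling and 4 with no filter, against 2; leaving out a library gave 1 to 2. Glycine cleavage genes called lower numbered 1 with median-ratio scaling and 1 with no filter, against 0; leaving out a library gave 0 to 1. Genes of serine use in lipids called lower numbered 2 with quantile normalization and 2 with median-ratio scaling, against 1. Serine breakdown genes called lower numbered 0 with no filter, 0 with a pseudocount of 0.1, 0 with voom and 0 with a replicate block, against 1; leaving out a library gave 0 to 1. With no filter 2 serine breakdown genes were higher, against 1. The cause was not tested. SLC19A1 lost its call with median-ratio scaling and without UDCA replicate 1, UDCA replicate 3 or control replicate 1.

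No sign of pairing by replicate number was seen: the correlation of deviations between same-numbered libraries was 0.014, -0.0012 and 0.0072. Between libraries of different number it ran from -0.050 to 0.042. These values cannot exclude a small effect of pairing. With the replicate block the enzymes still gave 8 higher and 2 lower, the highest adjusted p being 0.00467, and 6427 genes were higher and 5076 lower. Depth limits GLDC and ALDH1L1, whose values rest on few reads.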
